A study of Homo sapiens with 14 samples.

Results

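Matrix metalloproteinases and their tissue inhibitors were followed in RNA sequencing libraries of A549, a lung cancer cell line, and SUM159, a triple negative breast cancer cell line. The members were chosen by gene symbol, 7 metalloproteinases (MMP1, MMP2, MMP3, MMP7, MMP10, MMP13 and MMP14) and 3 inhibitors (TIMP1, TIMP2 and TIMP3), which are 10 of the 60683 genes counted. A549 had 5 groups, namely untreated cells, 10 days with palbociclib at 2 μM, 10 days with indisulam at 0.5 μM, 10 days with both drugs, and 7 days with PF-06873600 at 0.5 μM. SUM159 had 2 groups, untreated cells and 7 days with PF-06873600 at 0.5 μM. Palbociclib inhibits CDK4 and CDK6, PF-06873600 inhibits CDK2 as well as these kinases, and indisulam directs the splicing factor RBM39 to degradation. Each group had 2 libraries, which the submitters call technical duplicates, so every p-value below measures the spread between these libraries, which may be technical. The labels give no time at which untreated cells were collected.

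Matrix metalloproteinases are zinc-dependent enzymes that cut proteins of the extracellular matrix and of the cell surface. Most are secreted as inactive proenzymes whose propeptide has to be removed, and TIMPs bind the active site and hold the enzyme inactive. Collagenases (MMP1, MMP13) open fibrillar collagen, the gelatinase MMP2 cuts denatured collagen and type IV collagen, the stromelysins MMP3 and MMP10 cut proteoglycans and activate other proenzymes, and matrilysin (MMP7) is the small epithelial member that sheds surface proteins. MMP14 is anchored in the membrane and activates proMMP2 in a complex with TIMP2. Several of these genes belong to the secretory programme of senescent cells. Activity depends on these protein steps, none of which RNA counts measure.

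Libraries held 13060374 to 21149256 counts on genes. A level is given as CPM (counts scaled by the library's total on genes), and the smallest level taken as measurable, 3 counts in a library, lay between 0.142 and 0.23 CPM. A gene was called when its adjusted p (edgeR quasi-likelihood F test, Benjamini-Hochberg adjustment over all genes tested) was under 0.05. Epithelial markers (KRT8, KRT18, KRT19, EPCAM, CDH1) summed to 4672 to 5429 CPM in untreated A549 and 428 to 755 CPM in SUM159, where CDH1 had at most 14 counts in a library. The mesenchymal markers VIM, ZEB1 and CDH2 summed to 706 to 774 CPM in untreated A549 and 3885 to 4570 CPM in SUM159. In such bulk samples, fewer cells of a type and less RNA per cell cannot be told apart.

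Untreated, the lines differed in the levels of most members. MMP7, the epithelial matrilysin, stood at 107 and 113 CPM in the untreated A549 libraries and at 1.09 and 1.07 CPM in those of SUM159. SUM159 was lower by far, a log2 difference of -6.67 ± 0.12 (SE, n = 2 against 2, adjusted p = 7.04e-20). The other members with usable counts lay the opposite way. MMP1, the interstitial collagenase, had 0.748 and 0.6 CPM in A549 against 18.2 and 20.8 CPM in SUM159 (log2 difference 4.84 ± 0.2, adjusted p = 3.11e-14). MMP14 had 5.37 and 3.93 CPM in A549 and 38.3 and 35.5 CPM in SUM159 (2.99 ± 0.11, adjusted p = 9.99e-15). TIMP3, the inhibitor that stays bound to the matrix, had 1 and 0 counts in A549 against 369 and 319 in SUM159, a ratio of 628 with a 95% counting interval (exact, counting error only) of 112 to 24840. For MMP3, A549 had 0 counts in both untreated libraries and SUM159 had 21 in each, at least 6.39-fold higher when A549 is set to the floor of 3 counts per library.

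Of the 10 members, all tested in the model of both lines, 7 were higher and 1 was lower in untreated SUM159, where 41.9% of all 17279 genes tested were higher and 36.8% lower. MMP2, TIMP1 and TIMP2 completed the 7, with log2 differences of 2.03, 2.58 and 1.47. The median of the 10 was 2.3, also with MMP3 set to its bound, against 0.078 over all genes. MMP10 and MMP13 had at most 2 counts in the untreated libraries, apart from 3 counts of MMP10 in 1 A549 library, and no difference was detectable at this depth. MMP3 passed the filter only through SUM159, so this count too describes the genes and supports nothing.

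**Figure D1:**
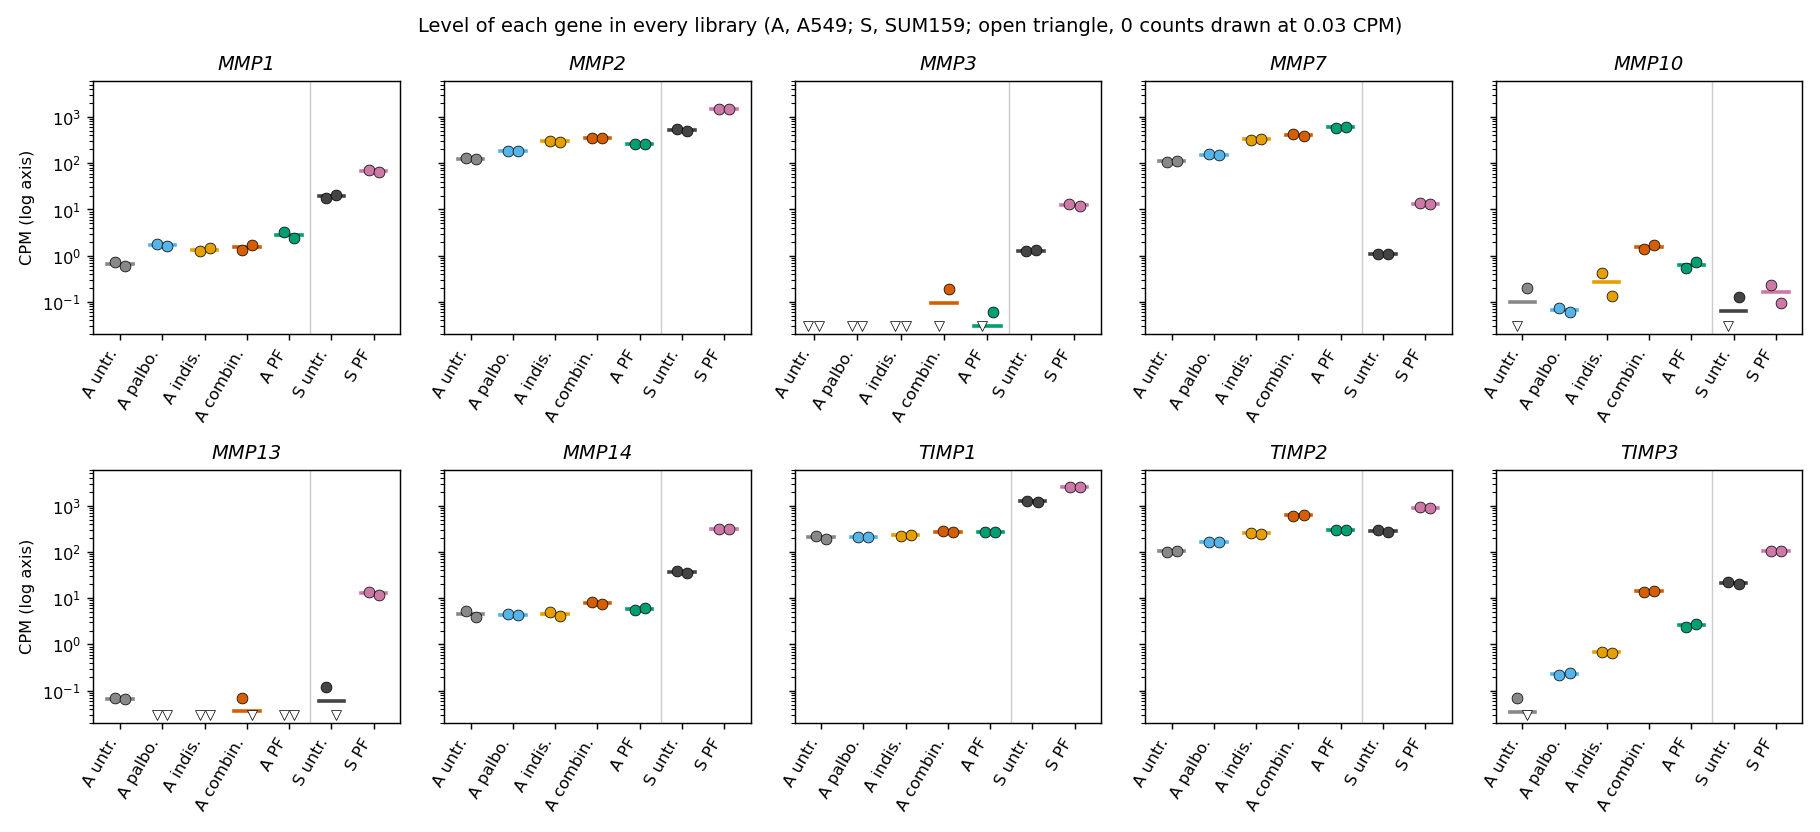
Level of each of the 10 genes in every library, in CPM on a log axis, with 1 point per library, a bar at the group mean and open triangles for libraries with 0 counts. MMP7 lies near 100 CPM or above in A549 and near 1 CPM in untreated SUM159, while MMP13 is measurable only in the 2 SUM159 libraries treated with PF-06873600 and TIMP3 climbs from 0 or 1 count in untreated A549 to 190 and 226 counts with both drugs.

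Of the 7 metalloproteinases, 5 sit in the MMP cluster of chromosome 11, where 9 MMP genes lie head to tail on the minus strand over 435.2 kb (chr11:102520508-102955732, hg38, GENCODE release 44 annotation). MMP7 lies at one end, MMP10, MMP1 and MMP3 lie 250, 269 and 315 kb from it, and MMP13 is at the other end, 422 kb away. In A549 the end gene MMP7 carried nearly all of the cluster's counts, since MMP1 had at most 43 counts, MMP10 at most 26 and MMP3 at most 3 in a library. In SUM159 the largest level of the cluster was that of MMP1. The 4 cluster genes outside the 10, MMP20, MMP27, MMP8 and MMP12, had at most 1, 0, 2 and 13 counts in any library. MMP2 (chr16:55389700-55506691), MMP14 (chr14:22836560-22849041), TIMP1 (chrX:47582408-47586789), TIMP2 (chr17:78852977-78925387) and TIMP3 (chr22:32801705-32863041) lie outside it.

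**Figure D2:**
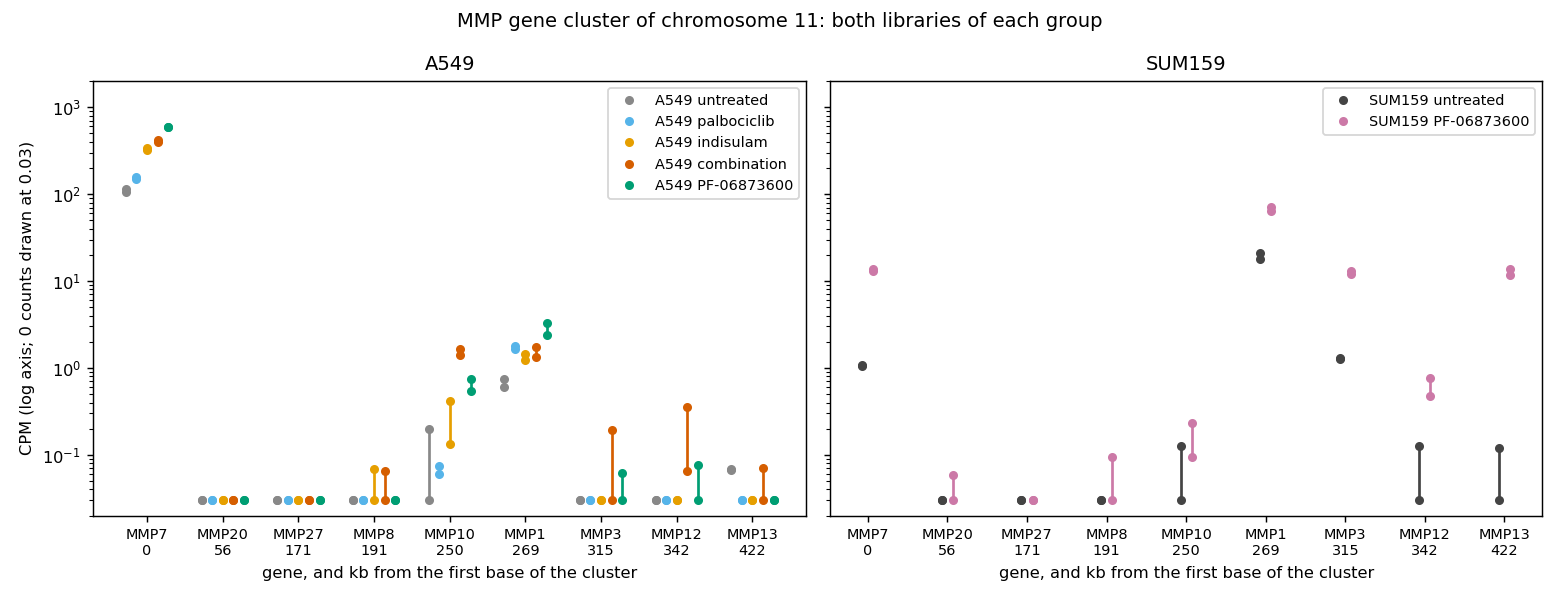
Genes of the chromosome 11 cluster in their order, with the distance from the cluster's first base in kb, against CPM on a log axis; points are the 2 libraries of each group, joined by a line, and 0 counts are drawn at 0.03 CPM. In A549 MMP7 reaches 597 CPM and no other gene of the cluster exceeds 3.29 CPM, while in SUM159 treated with PF-06873600 MMP7, MMP1, MMP3 and MMP13 all stand above 11 CPM.

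Promoter sequence was at hand for 5 of the 10 genes (RefSeq, GRCh38.p14), and MMP1, MMP2, MMP3, MMP13 and TIMP2 have no entry. The last 120 bases before the start of each are shown side by side, since these genes span the largest and the smallest changes among the genes tested with both drugs in A549, with capitals marking any match to 4 motifs, AP-1 (TGANTCA), CRE (TGACGTCA), PEA3 (AGGAAG) and the TATA box (TATAAA), searched on both strands over 250 bases before the start. The windows lie at chr11:102530748-102530867 and chr11:102780629-102780748 on the minus strand and at chr14:22836465-22836584, chrX:47582316-47582435 and chr22:32801585-32801704 on the plus strand.
MMP7: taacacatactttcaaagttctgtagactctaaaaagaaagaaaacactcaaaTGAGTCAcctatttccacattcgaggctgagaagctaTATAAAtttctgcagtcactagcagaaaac
MMP10: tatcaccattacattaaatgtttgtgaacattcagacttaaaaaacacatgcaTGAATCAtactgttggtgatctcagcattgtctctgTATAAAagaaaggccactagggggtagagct
MMP14: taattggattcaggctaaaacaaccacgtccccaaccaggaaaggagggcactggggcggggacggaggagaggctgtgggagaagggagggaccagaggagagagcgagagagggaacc
TIMP1: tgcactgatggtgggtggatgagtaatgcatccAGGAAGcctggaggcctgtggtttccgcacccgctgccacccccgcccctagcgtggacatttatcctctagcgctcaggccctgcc
TIMP3: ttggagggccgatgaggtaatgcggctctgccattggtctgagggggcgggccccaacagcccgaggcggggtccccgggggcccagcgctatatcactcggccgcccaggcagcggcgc
MMP7 and MMP10 each had an AP-1 match at positions -67 to -61, TGAGTCA and TGAATCA, and a TATA box match that began at -30 and -31, counted back from the start. MMP7 had 2 further PEA3 matches on the other strand, at -169 and -145, outside the printed bases, and TIMP1 had 1 PEA3 match at -87 to -82. MMP14 and TIMP3 held none of the 4 motifs, no CRE match was found in the 5 windows, and no matches overlapped. Among 27305 promoters of the same length, 6.6% held the AP-1 letters, 1.77% CRE, 28.7% PEA3 and 11.1% the TATA box. The GC share of the 250 bases was 33.6% for MMP7 and 34.4% for MMP10 against 56.8% for MMP14, 64.8% for TIMP1 and 72.4% for TIMP3. A match is a description of letters and not a measured binding site.

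In A549, MMP3 and MMP13 had at most 3 counts in a library and were not tested. MMP10 passed the filter on low counts only through the combination, and TIMP3 only through the combination and PF-06873600. Counts over the 8 genes tested, and the p-values of MMP10 and TIMP3, therefore describe the genes and support nothing. The comparisons with untreated A549 below share the same 2 untreated libraries. These differed from each other more than the libraries of any treated A549 group. Their chi-square per degree of freedom was 9.57, against 1.61 to 5.04 in the treated groups. The small p-values against untreated cells are to be read with this in mind.

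Against untreated A549, palbociclib alone gave the smallest median change of the genes tested among the treatments, although not the smallest change of MMP1. MMP7 stood at 158 and 151 CPM against 107 and 113 in untreated cells (log2 fold change 0.48 ± 0.062, adjusted p = 0.00011). MMP2 went from 130 and 123 CPM to 188 and 184 (0.55 ± 0.055, adjusted p = 1.05e-05). TIMP2, which holds MMP2 and helps MMP14 to activate it, went from 98 and 107 CPM to 166 and 162 (0.68 ± 0.06, adjusted p = 4.17e-06). In each of these the groups did not overlap. The share of all genes without overlap was not counted, so this describes the genes and supports nothing. MMP1 rose on few counts, 24 and 27 against 11 and 9 (1.33 ± 0.34, adjusted p = 0.0161), and this call was lost with DESeq2 (adjusted p = 0.0906). TIMP1, the soluble general inhibitor, did not pass the test, at 207 CPM in both libraries between the untreated values of 220 and 195. TIMP3 did not pass either, on 3 and 4 counts against 1 and 0 (2.53 ± 0.95, adjusted p = 0.109). Nor did MMP10 (-0.54 ± 1.27, adjusted p = 0.834) and MMP14 (-0.082 ± 0.19, adjusted p = 0.83). In all, 4 of 8 genes were higher and 0 lower, where 8.3% of 15780 genes were higher and 7.4% lower, and their median log2 fold change was 0.52 against -0.006 over all genes.

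Indisulam alone gave larger changes of MMP2, MMP7 and TIMP2. MMP7 was at 319 and 343 CPM (1.59 ± 0.062, adjusted p = 1.22e-10), MMP2 at 304 and 295 CPM (1.24 ± 0.055, adjusted p = 4.03e-10) and TIMP2 at 256 and 249 CPM (1.3 ± 0.06, adjusted p = 5.96e-10). TIMP3 had 10 counts in each library against 1 and 0, a ratio of 20.1 with a counting interval of 3.21 to 832 (adjusted p = 0.000534). MMP1 had 18 and 22 counts (0.996 ± 0.36, adjusted p = 0.035), a call lost with DESeq2 (adjusted p = 0.199). MMP14, at 5.05 and 4.1 CPM, lay within the untreated range, and TIMP1, at 226 and 233 CPM, did not pass the test (0.15 ± 0.063, adjusted p = 0.0669). Thus 5 of 8 genes were higher and 0 lower, where 28% of all genes were higher and 17.5% lower, and their median was 1.27 against 0.08. With the model fitted to these 4 libraries alone 3 were higher, since MMP1 lost its call (adjusted p = 0.0569) and TIMP3 did not reach the filter. Under TMM scaling MMP1 also lost its call (adjusted p = 0.051), which left 4 genes higher. Scaling mattered here over all genes too, as 61.6% of the genes called went up under total-count scaling but 50.4% did so under TMM scaling.

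With both drugs every one of the 8 genes tested was higher, and TIMP2 and TIMP3 stood out. TIMP2 was at 605 and 636 CPM, against 98 and 107 CPM in untreated cells and at most 256 CPM with either drug alone. Its log2 fold change was 2.6 ± 0.061 against untreated (adjusted p = 1.12e-13), 1.92 ± 0.059 against palbociclib and 1.3 ± 0.057 against indisulam. TIMP3 had 190 and 226 counts (13.5 and 14.6 CPM), against 1 and 0 counts untreated, 3 and 4 with palbociclib and 10 and 10 with indisulam. The ratio to untreated cells was 417, with a counting interval of 74.4 to 16510 from the 1 untreated count, and the fold over indisulam was 20.7 (log2 fold change 4.36 ± 0.23, adjusted p = 1.38e-09). The combination was also 60-fold above palbociclib for this gene (5.85 ± 0.27, adjusted p = 1.87e-10). TIMP3 passed the filter only through the combination and PF-06873600, so its p-values describe it and support nothing.

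Among the enzymes, MMP7 reached 420 and 396 CPM with both drugs (1.89 ± 0.062, adjusted p = 3.16e-12) and MMP2 reached 357 and 355 CPM (1.49 ± 0.055, adjusted p = 9.98e-12). Both lay above each single drug, although MMP7 exceeded indisulam by a log2 fold change of only 0.3 ± 0.059 (adjusted p = 0.000732) and MMP2 by 0.25 ± 0.053 (adjusted p = 0.00145). MMP14 was called with neither drug alone, as was also the case for MMP10 and TIMP1. With both drugs MMP14 stood at 8.44 and 7.53 CPM, against 5.37 and 3.93 CPM untreated (0.78 ± 0.18, adjusted p = 0.00127). MMP10, stromelysin 2, had 20 and 26 counts with both drugs against 0 and 3 untreated, 1 and 1 with palbociclib and 6 and 2 with indisulam. Its ratio to untreated was 15.4 (counting interval 4.94 to 77.3, adjusted p = 0.000113). The ratio to palbociclib was 23.2 (6.06 to 197, adjusted p = 8.28e-05), and the log2 fold change against indisulam was 2.48 ± 0.53 (adjusted p = 0.00142). MMP10 passed the filter only through the combination, so these p-values describe it and support nothing.

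TIMP1 rose by less than the other inhibitors, to 282 and 267 CPM (0.4 ± 0.063, adjusted p = 5.16e-05). MMP1, at 19 and 27 counts, overlapped both single drugs and did not pass the test against either (adjusted p = 0.7 and 0.625). Against untreated cells it was called (1.19 ± 0.35, adjusted p = 0.00775), but not with DESeq2 (adjusted p = 0.0624). The 8 genes called of 8 tested compare with 35.1% of all genes higher and 30% lower, and their median of 1.69 with 0.052. Against palbociclib 7 of 8 were higher and 0 lower (33.5% and 26.9% of all genes, medians 1.17 and 0.055), and against indisulam 7 of 8 were higher and 0 lower (22% and 23.9% of all genes, medians 0.55 and -0.022). The gene not called in either was MMP1.

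**Figure D3:**
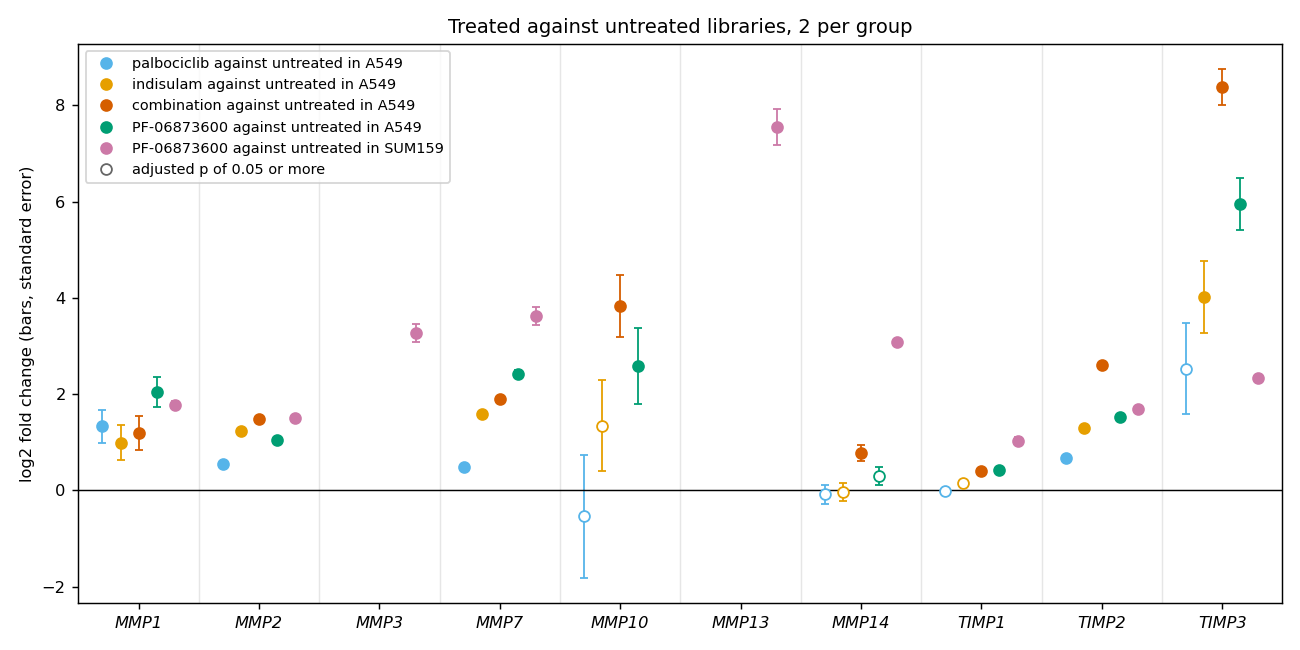
Log2 fold change of each gene against untreated cells of the same line, with the standard error, for 5 comparisons of 2 libraries against 2; filled points passed the test, and genes not tested have no point. TIMP2 is highest with the combination in A549 (2.6), MMP7 with PF-06873600 in SUM159 (3.63) and MMP14 is near 0 with each single drug in A549 and at 3.09 in SUM159; the points of TIMP3 and MMP10 in A549 and of MMP13 rest on 3 or fewer untreated counts.

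The interaction term asks whether the log2 fold change with both drugs differed from palbociclib's plus indisulam's, with a value of 0 where the addition holds. TIMP2 exceeded the sum by 0.62 ± 0.083 (adjusted p = 6.83e-05), the single drugs giving 0.68 and 1.3 and the combination 2.6. MMP2 stayed below it by -0.3 ± 0.076 (adjusted p = 0.00867), with 0.55 and 1.24 for the single drugs and 1.49 for both. MMP14 exceeded the sum by 0.89 ± 0.26 (adjusted p = 0.0223) and TIMP1 by 0.26 ± 0.089 (adjusted p = 0.0475), and both calls were lost under other settings, MMP14 with DESeq2 (adjusted p = 0.0905) and TIMP1 with TMM scaling (adjusted p = 0.0635). MMP7 (-0.18 ± 0.086, adjusted p = 0.142) and MMP1 (-1.14 ± 0.46, adjusted p = 0.089) did not pass. For TIMP3 the term was 1.83 ± 1.74 (adjusted p = 0.56), with 1 untreated count, and for MMP10 it was 3.02 ± 1.5 (adjusted p = 0.165), with 0 and 3 untreated counts. In all 3 of 8 genes were above the sum and 1 below, where 10.7% of all genes were above and 14.5% below. The median of the 8 was 0.44 against -0.021 over all genes.

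**Figure D4:**
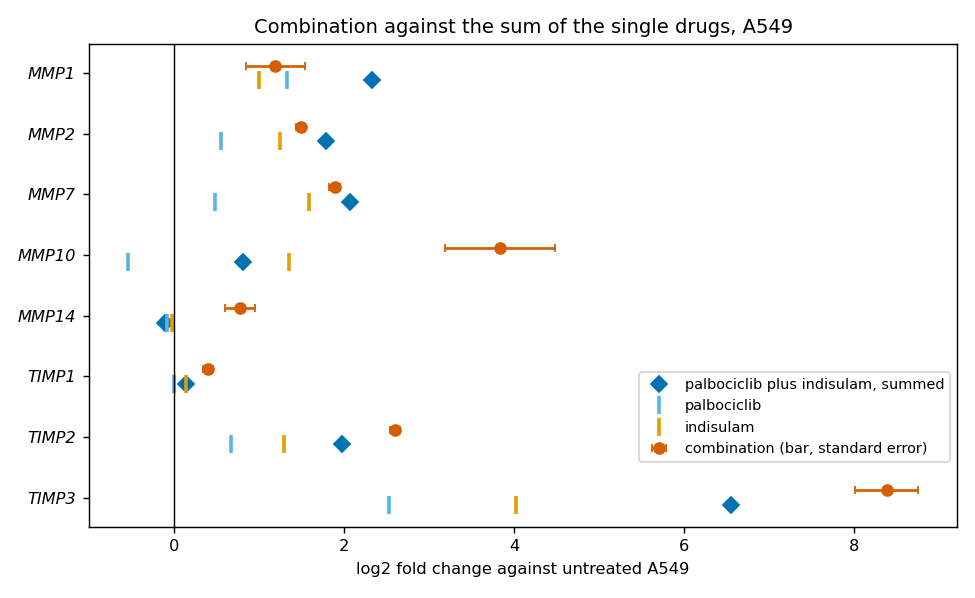
Log2 fold change against untreated A549 for the 8 genes tested, with the combination as circles (standard error), the 2 single drugs as ticks and their sum as diamonds. The combination lies right of the sum for TIMP2 (2.6 against 1.97) and left of it for MMP2 (1.49 against 1.79), while TIMP3 and MMP10 rest on 1 and 3 untreated counts.

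MMP7 had its highest level with 7 days of PF-06873600 in A549. It stood at 589 and 597 CPM against 107 and 113 CPM (2.43 ± 0.063, adjusted p = 1.12e-12), beside 420 and 396 CPM after 10 days of the combination. TIMP2 lay at 299 and 296 CPM (1.54 ± 0.06, adjusted p = 4.64e-11), beside 605 and 636 CPM with the combination. Times and agents differ between these groups, so their values are set side by side and were not tested against each other. MMP2 was at 262 and 264 CPM (1.05 ± 0.055, adjusted p = 8.4e-10), TIMP1 at 277 and 276 CPM (0.42 ± 0.063, adjusted p = 5.24e-05) and MMP1 at 3.29 and 2.41 CPM (2.05 ± 0.31, adjusted p = 5.9e-05), the highest MMP1 values of A549. TIMP3 had 31 and 45 counts against 1 and 0, a ratio of 77.3 with a counting interval of 13.5 to 3091 (adjusted p = 3.02e-07). MMP10 had 7 and 12 counts against 0 and 3, a ratio of 6.44 (1.9 to 34, adjusted p = 0.0116).

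MMP14 did not pass the test in A549 with PF-06873600, at 5.44 and 6 CPM against 5.37 and 3.93 (0.3 ± 0.18, adjusted p = 0.176). Of the 8 genes tested 7 were higher and 0 lower, where 28.5% of all genes were higher and 27.8% lower, and their median was 1.8 against -0.008.

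In SUM159 the same dose and time of PF-06873600 was followed by higher levels of all 9 genes tested. MMP13, collagenase 3, went from 2 and 0 counts to 235 and 251 (13.7 and 11.9 CPM), a ratio of 207 with a counting interval of 56.9 to 1712 (adjusted p = 1.4e-10). MMP13 passed the filter only through the treated libraries, so its p-value and the count of 9 describe the genes and support nothing. MMP14 went from 38.3 and 35.5 CPM to 314 CPM in both libraries (3.09 ± 0.062, adjusted p = 1.09e-14). The stromelysin MMP3 went from 21 and 21 counts to 226 and 253 (3.28 ± 0.19, adjusted p = 5.98e-10). MMP7 went from 18 and 17 counts to 237 and 273 (3.63 ± 0.19, adjusted p = 2.21e-10), which left it at 13.9 and 12.9 CPM, below the lowest A549 library. MMP1 went from 18.2 and 20.8 CPM to 70.3 and 63.9 (1.78 ± 0.083, adjusted p = 6.66e-11) and MMP2 from 546 and 489 CPM to 1473 and 1462 (1.5 ± 0.072, adjusted p = 1.03e-10).

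The 3 inhibitors also rose in SUM159. TIMP3 went from 22.3 and 20 CPM to 106 in both libraries (2.33 ± 0.069, adjusted p = 6.16e-13), TIMP2 from 297 and 272 CPM to 921 and 905 (1.68 ± 0.066, adjusted p = 1.15e-11), and TIMP1 from 1286 and 1184 CPM to 2526 and 2538 (1.04 ± 0.076, adjusted p = 1.01e-08). In none of the 9 genes did the treated and untreated libraries overlap. The share of all genes without overlap was not counted, so this describes the genes and supports nothing. The background of this comparison was wide, with 38.1% of 15055 genes higher and 35.6% lower, and the median of the 9 genes was 2.33 against 0.02. MMP10 was not tested, at 0 and 2 counts untreated and 4 and 2 treated, and no difference was detectable at this depth.

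The response to PF-06873600 differed between the lines for 6 genes. As SUM159 minus A549 on the log2 scale, the difference was 2.78 ± 0.18 for MMP14 (adjusted p = 2.26e-10), 1.19 ± 0.19 for MMP7 (adjusted p = 3.26e-05), 0.62 ± 0.088 for TIMP1 (adjusted p = 7.11e-06) and 0.45 ± 0.082 for MMP2 (adjusted p = 0.000126). TIMP3 gave -3.64 ± 0.67 (adjusted p = 0.000125), that is, a larger rise in A549, measured from 1 untreated count. MMP13 gave 10.8 ± 2.5 (adjusted p = 0.00147), a value that depends on how the model treats the 1 and 1 counts of untreated and the 0 and 0 of treated A549. MMP1 (-0.27 ± 0.32, adjusted p = 0.54) and TIMP2 (0.15 ± 0.084, adjusted p = 0.158) did not pass, and the intervals of 2 standard errors ran from -0.91 to 0.38 and from -0.022 to 0.32. MMP3 and MMP10, with at most 12 counts in the A549 libraries of this comparison, did not pass either (adjusted p = 0.764 and 0.551). So 5 of 10 were higher and 1 lower, where 25.8% of 17279 genes were higher and 27.2% lower, and the median was 0.54 against 0.035. MMP13 passed the filter only through treated SUM159 and MMP10 only through the A549 combination, so this count describes the genes and supports nothing.

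To compare levels between genes, CPM was divided by the length of the merged exons in kb. Per kb, TIMP1 was the highest of the 10 genes in 6 of the 7 groups, at 143 ± 12 CPM per kb in untreated A549 and 854 ± 50 in untreated SUM159 (SD, n = 2). In the A549 combination its lead over MMP7 was narrow, with libraries at 195 and 184 CPM per kb against 181 and 171. The exception was A549 with PF-06873600, where MMP7 stood at 256 ± 2.4 and TIMP1 at 191 ± 0.22 CPM per kb. Next came MMP7, MMP2 and TIMP2 in untreated A549, at 47.5, 26.9 and 16.5 CPM per kb, and MMP2, TIMP2 and MMP14 in untreated SUM159, at 110, 45.8 and 7.98. In the A549 combination TIMP2 (99.9 ± 3.5) lay above MMP2 (75.6 ± 0.32), the reverse of the other 4 A549 groups. MMP14 and MMP1 in untreated SUM159, at 7.98 ± 0.43 and 7.11 ± 0.68, lay close together with adjoining ranges, from 7.68 for the lower MMP14 library and up to 7.59 for the higher MMP1 library.

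Summed per kb, the 7 metalloproteinases amounted to 75.1 and 76.3 CPM per kb in untreated A549 against 168 and 152 for the 3 inhibitors, a ratio of 0.448 and 0.503. The ratio was 0.646 and 0.622 with palbociclib, 1.03 and 1.05 with indisulam, 0.881 and 0.861 with the combination and 1.3 and 1.32 with PF-06873600. In SUM159 it was 0.14 and 0.139 untreated and 0.221 and 0.217 with PF-06873600. The 5 A549 groups did not overlap in this ratio, and an exact permutation test of 2 against 2 libraries cannot give a two-sided p under 0.33. TIMP1 made up most of the inhibitor sum in every group. Most of the metalloproteinase sum was MMP7 in A549 (47.5 CPM per kb untreated, 256 with PF-06873600) and MMP2 in SUM159 (110 untreated, 312 with PF-06873600). The ratio thus reflects mainly these genes. These are sums of RNA levels and not of proteins.

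**Figure D5:**
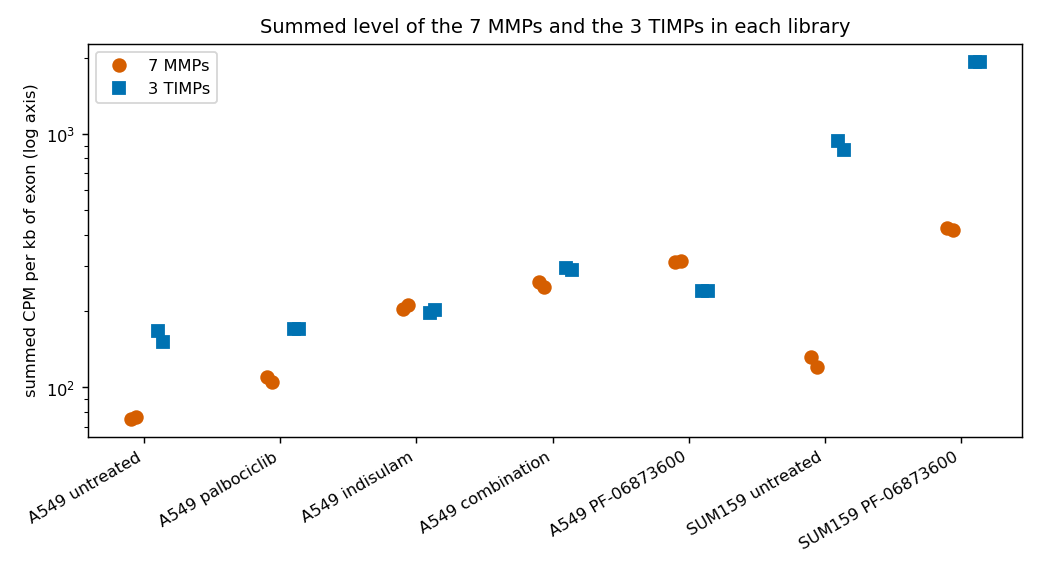
Summed level of the 7 metalloproteinases (circles) and the 3 inhibitors (squares) in each of the 14 libraries, in CPM per kb of exon on a log axis. The circles rise above the squares in A549 with PF-06873600 (312 and 316 against 240 and 239) and lie far below them in SUM159 (132 and 120 against 942 and 867 untreated).

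Likeness of pattern was measured over the 7 group means as the root mean square difference of centred log2 CPM, over means that share 2 cell lines, and it is a description only. MMP14 lay closest to SOD3 (0.133) and then to MMP3 (0.254), the closest pair within the family. MMP3 had at most 3 counts in any A549 library, so its log2 CPM there was set mostly by the prior count of 2 added to each. MMP2 lay closest to SH3PXD2B (0.141), TIMP1 to DSG3 (0.118), TIMP2 to FNDC4 (0.159) and MMP13 to S100A8 (0.105). Outside treated SUM159, MMP13 had at most 2 counts in a library, so the same limit holds for it. MMP7 and MMP1 had no near neighbour by the same measure, the closest being IGFBP5 at 0.474 and IFI44L at 0.36, and TIMP3 lay closest to IL32 (0.337). MMP3 lay closest to MYOZ2 (0.219) and MMP10, on few counts, to APBB1IP (0.216).

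Other genes of the same system were read from 5 lists. Among 17 further MMP and TIMP genes, 8 were tested in A549, of which 5 were higher and 1 lower with the combination (median 1.01). MMP24, a membrane-bound member, went from 25.8 ± 2.4 to 187 ± 4.6 CPM (SD, n = 2, log2 fold change 2.85), and MMP16 fell by 0.74 on the log2 scale. With PF-06873600 in SUM159, 8 of 9 tested were higher and 1 lower (median 1.56). MMP15 went from 3 ± 0.88 to 65.5 ± 3.4 CPM (4.44), MMP9, the second gelatinase, from 0.0313 ± 0.044 to 4.15 ± 0.66 CPM, and MMP16 again fell, by 0.69. The medians over all genes were 0.052 and 0.02 in these comparisons. Of all genes, 35.1% were higher and 30% lower in the first, and 38.1% and 35.6% in the second.

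Of 27 related ADAM and ADAMTS proteinases, 14 of 18 tested were higher and 1 lower with the combination in A549 (median 1.08), ADAM19 going from 1.65 ± 0.45 to 62.5 ± 0.51 CPM. In SUM159 with PF-06873600, 14 of 20 were higher and 3 lower (median 1.08), with ADAMTS14 at 1.48 ± 0.39 and 32.3 ± 0.87 CPM. ADAMTS15 moved in opposite directions, higher by 4.52 in the A549 combination and lower by -0.86 in SUM159. Of 24 genes of proenzyme activation and clearance, 17 of 22 were higher and 0 lower in the A549 combination (median 1.04) and 18 of 21 higher and 2 lower in SUM159 (median 1.05). LRP1, a receptor that takes up proteinases and their inhibitors, went from 42.3 ± 11 to 350 ± 18 CPM in SUM159. Over all genes, 35.1% were higher and 30% lower in the A549 combination (median 0.052). In SUM159 38.1% were higher and 35.6% lower (median 0.02).

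A list of 25 AP-1, ETS and RUNX transcription factors had 23 genes tested in A549 and 25 in SUM159. In the A549 combination 14 were higher and 5 lower (median 0.42), where 35.1% and 30% of all genes were, with JUN from 6.84 ± 0.43 to 121 ± 6.9 CPM and FOS from 3.7 ± 0.044 to 1.44 ± 0.24 CPM. In SUM159 11 were higher and 7 lower (median 0.11), near the 38.1% and 35.6% of all genes, with EHF from 2.21 ± 0.38 to 36 ± 0.28 CPM. ETV4, a PEA3 factor, fell in both, by 2.33 in the A549 combination and by 1.44 in SUM159. Of 18 substrates of these enzymes, 10 of 13 were higher and 2 lower in the A549 combination (median 3.58), among them COL5A1 (0.507 ± 0.24 to 81.2 ± 3.1 CPM), while VCAN fell by 0.63. In SUM159 16 of 17 were higher and 1 lower (median 1.84, or 1.77 with a gene at 0 set to its bound), with COL3A1 from 12.2 ± 0.59 to 298 ± 13 CPM.

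Markers of other cell types also differed between the groups, some higher and some lower with treatment. The fibroblast markers COL1A1, PDGFRB, DCN and LUM summed to 1.97 to 2.2 CPM in untreated A549, 4.16 to 4.45 with palbociclib, 20.3 to 21.4 with indisulam, 82.5 to 84 with the combination and 8.47 to 10.4 with PF-06873600. COL1A1 made up most of it, LUM reached 137 counts with the combination, and DCN had at most 5 counts in any A549 library. In SUM159 all 4 were higher with PF-06873600, summing to 1699 to 1797 CPM untreated and 4029 to 4191 treated. Leukocyte markers (PTPRC, CD68, CD3E) summed to at most 1.36 CPM in A549, and to 9.53 to 9.96 untreated and 18.1 to 20.4 treated in SUM159, nearly all PTPRC, with CD3E at 0 in all libraries. The endothelial markers PECAM1 and CDH5 summed to at most 1.6 CPM in A549. There, untreated cells had 1.56 to 1.6 CPM and the combination 0.284 to 0.322 CPM. For SUM159 the sum was 10.9 to 11.5 CPM untreated and 26.4 to 28.6 CPM treated. In A549 the epithelial sum was 7849 to 7949 CPM with palbociclib, 8236 to 8251 with indisulam, 10070 to 10530 with the combination and 11770 to 11850 with PF-06873600. With PF-06873600 KRT8 lay between 5631 and 5680 CPM (1908 and 2344 untreated), EPCAM between 7.73 and 8.35 CPM (18.3 and 20.6 untreated) and CDH1 between 93.1 and 98.1 CPM (152 and 160 untreated). EPCAM and CDH1 were lower than untreated also with palbociclib (10.9 to 11.2 and 136 to 144 CPM). The same held with the combination (13.9 to 15.1 and 126 to 130 CPM). With indisulam both were higher (24.4 to 26.4 and 171.9 to 172.3 CPM). KRT8 and KRT18 made up most of the epithelial sum in A549. The mesenchymal sum was 767 to 790 CPM with palbociclib, 964 to 1003 with indisulam, 1895 to 1935 with the combination, nearly all VIM, and 1191 to 1226 with PF-06873600. The proliferation markers MKI67 and TOP2A summed to 374 to 398 CPM in untreated A549, 277 to 299 with palbociclib, 268 to 279 with indisulam, 56.4 to 57.5 with both and 173 to 186 with PF-06873600, and in SUM159 to 1195 to 1390 untreated and 432 to 434 treated. Their part in the results above was not tested.

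Several of the genes overlap another gene. MMP1, MMP3 and MMP10 overlap WTAPP1 on the other strand (at most 6 counts in a library), TIMP1 lies within SYN1 and TIMP3 within SYN3, both on the other strand (at most 34 and 2 counts), and TIMP2 shares 224 exon bases with CEP295NL on its own strand (at most 10 counts) and 367 with ENSG00000267601 on the other (at most 11), and MMP2 shares 174 with ENSG00000279030 on its own strand (at most 4). Reads in shared exons can be set aside as ambiguous, so these counts do not measure how many reads a member lost.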

How the data were processed

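The authors sequenced stranded mRNA libraries and deposited raw counts per gene, whole numbers without normalization, as 1 table per library. Per the labels the processing used HISAT2 2.2.1, HTSeq and GRCh38, and whether counting used strand is not given in the sources used here. The 9 summary lines of each table, reads not counted on a gene, were left out. Symbols came from GENCODE release 44 for 60370 of 60683 genes.

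The members and the gene lists were chosen with earlier results of these data known. Counts were scaled by library total and tested with edgeR 4.0.16 (R 4.3.3), filterByExpr by group, the quasi-likelihood F test and Benjamini-Hochberg adjustment, in models of 10 A549 libraries (15780 genes), 4 SUM159 libraries (15055) or all 14 (17279). SE is the absolute log2 fold change over the square root of F. Libraries of each group differed by more than sampling noise (chi-square per degree of freedom 1.61 to 9.57), so none was merged for the tests. The largest values were those of untreated A549 (9.57) and untreated SUM159 (9.05), the baselines of the tests against untreated cells. Each model shared its spread over its groups, so p-values against untreated cells may be too small. Ratios given with a counting interval add the counts of both libraries of a group, so these intervals leave out the spread between libraries. Counts carry no molecular identifiers, so intervals and floors cover counting error only. In simulations of the A549 combination on 14890 genes, 78% of 1.5-fold and 98% of 2-fold changes were called, and 6% of calls were false. For SUM159 (14038 genes) the values were 70%, 96% and 10.7%, and for the line difference (15117 genes) 48%, 94% and 2.33%. Only 50 genes were changed at each fold, none of them with few untreated counts, and all genes had the same simulated spread. In the data far more genes were called and the spread differed between groups. The rates therefore do not apply to members with few counts, such as MMP10 and TIMP3 in A549.

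Every member is named. From each list the rule took up to 2 genes with the largest and 2 with the lowest change past the threshold in the A549 combination and in SUM159, of which some are printed. Alternatives were TMM scaling, DESeq2 1.42.0, other filters, only the compared groups, a replicate block, and each library left out. The crossed block was chosen after seeing the data. Python 3.11.15, scipy 1.17.1 and matplotlib 3.10.9 were also used.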

Additional observations from a re-analysis of the deposited data

Results flagged for a closer look

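The response to PF-06873600 differed between SUM159 and A549, by the interaction test of the model of both lines, for 6 of the 10 genes. As SUM159 minus A549 on the log2 scale, MMP14 differed by 2.78 (log2 fold changes 3.09 and 0.3), MMP7 by 1.19 (3.63 and 2.43), TIMP1 by 0.62 (1.04 and 0.42) and MMP2 by 0.45 (1.5 and 1.05). TIMP3 differed by -3.64 (2.33 and 5.95), where A549 was measured from 1 untreated count. MMP13 differed by 10.76, with 1 and 1 counts in untreated A549, 0 and 0 in treated A549, 2 and 0 in untreated SUM159 and 235 and 251 in treated SUM159. With 2 libraries per group no search for single outlying libraries was made.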

How the results depend on the processing

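Each of 85 results on single genes was recomputed under its alternatives, 1365 recomputations in all. Of these, 1308 kept direction and side of the threshold, 35 lost a call, 5 gained one and 17 changed sign. All sign changes were of values that had not passed the test. TIMP1 with palbociclib gave 0.0072 with TMM scaling, 0.0076 with DESeq2 and 3e-04 with the replicate block. The other sign changes came with single libraries left out, over which TIMP1 with palbociclib ran from -0.086 to 0.0896, MMP14 from -0.29 to 0.158 with palbociclib and from -0.23 to 0.214 with indisulam, and MMP1 from -0.34 to 0.0235 between combination and palbociclib and from -0.0037 to 0.362 between combination and indisulam. The low-count genes ranged further, MMP10 from -1.47 to 3.16 with palbociclib, from -0.67 to 4.01 in the interaction, from -5.12 to 1.77 in the line difference and from -3.77 to 3.12 between the untreated lines, MMP13 from -3.23 to 0.772 between the untreated lines, and TIMP3 from -0.49 to 2.69 in the interaction. The MMP10 values of 3.16, -0.67 and 3.12 are those without A549 untreated replicate 2, which holds the 3 untreated counts, and the TIMP3 value of -0.49 is that without replicate 1, which holds the 1 count. For the rest the cause was not tested.

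The number of genes called higher with indisulam was 3 with only the compared groups in the model, where MMP10 and TIMP3 were not tested. Leaving out single libraries gave 1 to 3 genes above the sum of the drugs (1 without palbociclib replicate 2, indisulam replicate 2 or combination replicate 1) and 1 to 2 below it (2 without untreated replicate 2, where MMP7 joined at -0.23). The MMP1 call was lost without untreated replicate 2 (adjusted p = 0.0741 with palbociclib, 0.154 with indisulam, 0.0528 with both), with indisulam also without untreated replicate 1 (0.0597), and without a library of the treated group (palbociclib 0.0755 and 0.0662, indisulam 0.0678 and 0.156, combination replicate 2 0.072). The MMP10 call with PF-06873600 in A549 was lost without untreated replicate 1 (0.0848) or treated replicate 2 (0.0855), and that of TIMP1 between combination and indisulam without combination replicate 1 (0.0531). The interaction of TIMP1 kept its call, among the A549 libraries left out, only without untreated replicate 2, and that of MMP14 lost its call without untreated replicate 1, palbociclib replicate 2, indisulam replicate 2 or combination replicate 1 (0.0646 to 0.101). Without A549 untreated replicate 1 calls were gained by TIMP1 with indisulam (0.00159), MMP14 with PF-06873600 (0.041), MMP10 in the interaction (0.0461) and TIMP2 in the line difference (0.037).

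Deviations of same-numbered libraries had correlations from -0.217 (A549 untreated with palbociclib) to 0.166 (A549 untreated with indisulam). Since the signs differed, the numbers were not used as pairs in the main models. What lay behind these correlations was not tested. With the replicate block the only count of called members that moved was that above the sum of the drugs, where TIMP1 lost its call (adjusted p = 0.055). With palbociclib numbers crossed 4 genes were higher and 0 lower, and with untreated SUM159 numbers crossed 7 were higher and 1 lower. In the 7 comparisons with 0 members lower, 0 were lower also at an unadjusted p under 0.05 and with DESeq2. At this depth no level can be given for members with fewer than 3 counts.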
